A study of Mus musculus with 6 samples.

Results

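Messenger RNA of 10 genes that mark monocyte-derived and lipid-associated macrophages was measured in the liver of male C57BL/6 mice, sampled at 71 weeks, that were given chow with polyethylene microplastic (PE-MP) or normal chow, with 3 sequencing libraries for each chow. The genes were chosen by name, with earlier results of these data known. The rows of the read count table were those for Trem2, Gpnmb, Spp1, Cd9, Lpl, Ccr2, Ly6c2, Cx3cr1, Itgax and Lyz2. They are 10 of 56674 rows, and all 10 were among the 18043 genes that passed the expression filter. The labels name no modified gene, give neither a dose or particle size of the PE-MP nor a batch, and do not say how long the chow was given or that each library is a separate animal. The p-values therefore reflect variation among 3 libraries per chow, and this may be partly technical.

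Resident macrophages of the liver, the Kupffer cells, largely maintain themselves, while circulating monocytes enter after injury or when niches fall empty. Classical monocytes of the mouse carry Ly6C and the chemokine receptor CCR2 and leave the bone marrow along gradients of CCL2, whereas patrolling monocytes carry CX3CR1. In fatty or injured liver, macrophages derived from monocytes can take on a lipid-associated state known for TREM2, GPNMB, osteopontin (Spp1), CD9 and lipid-handling proteins. Several of these genes are not confined to macrophages. Spp1 is also made by bile duct cells, Cd9 by platelets and endothelium, Lpl by fat and muscle cells, Itgax by dendritic cells and Lyz2 by neutrophils.

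None of the 10 genes differed between the chows at an adjusted p of 0.05 (edgeR quasi-likelihood test, adjusted over 18043 genes), where 0.00554% of all genes were called higher and 0% lower under PE-MP chow. DESeq2 called 1 of the 10, Ly6c2, lower, where it called 3.48% of all genes lower and 3.1% higher. At an unadjusted edgeR p under 0.05 there was 1 of the 10 genes, Ly6c2 on the lower side, against 8.82% of all genes on that side, 9.1% on the higher side and 17.9% in all. Ly6c2 was also the 1 gene of the 10 whose libraries did not overlap between chows, on the lower side, against 11.8% of all genes on that side, 14.2% on the higher side and 26% in all. A count of 1 in 10 is near the share of all genes on the lower side on both measures. The 10 genes were split evenly, with 5 log2 fold changes above 0 and 5 below (8 and 2 with total counts alone), and their median of -0.02 lay beside 0.02 for all genes tested. The widest differences were in opposite directions within the monocyte genes, with Ccr2 higher and Ly6c2 lower under PE-MP chow. In whole-tissue RNA, fewer cells of a type and less RNA per cell cannot be told apart.

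The sequence before the transcription start is shown for the 3 genes of the set with the smallest p, Ly6c2, Ccr2 and Spp1, which bear the results below. Each line gives the 250 bases upstream of the first start listed for that gene by RefSeq on build GRCm38.p6, read 5′ to 3′ along the gene's strand. Capitals mark the letters AGGAAGT, the core bound by ETS factors such as the myeloid regulator PU.1, and the interferon response element, GAAA and GAAA with any 2 bases between them, on either strand. The windows are chr15:75111972-75112221 (- strand) for Ly6c2, chr9:124101933-124102182 (+ strand) for Ccr2 and chr5:104434861-104435110 (+ strand) for Spp1.

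Ly6c2: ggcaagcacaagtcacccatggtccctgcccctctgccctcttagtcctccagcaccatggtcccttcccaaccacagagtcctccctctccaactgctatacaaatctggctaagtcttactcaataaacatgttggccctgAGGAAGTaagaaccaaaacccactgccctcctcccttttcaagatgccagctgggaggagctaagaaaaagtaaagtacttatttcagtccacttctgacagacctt

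Ccr2: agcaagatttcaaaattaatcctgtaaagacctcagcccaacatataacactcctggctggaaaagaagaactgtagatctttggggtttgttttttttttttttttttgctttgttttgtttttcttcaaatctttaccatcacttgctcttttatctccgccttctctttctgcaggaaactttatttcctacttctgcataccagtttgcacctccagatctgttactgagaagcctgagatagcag

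Spp1: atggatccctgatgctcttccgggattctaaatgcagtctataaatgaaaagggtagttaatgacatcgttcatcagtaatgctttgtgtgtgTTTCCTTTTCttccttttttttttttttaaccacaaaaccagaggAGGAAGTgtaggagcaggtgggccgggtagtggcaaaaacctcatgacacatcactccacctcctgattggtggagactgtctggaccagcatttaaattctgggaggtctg

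Windows were available for 9 of the 10 genes, the exception being Lpl. AGGAAGT was found in 3 of the 9, those of Ly6c2, Spp1 and Lyz2, and in 7.69% of all 32851 windows of this length. In Ly6c2 the match lay at -107 to -101 from the start on the gene's own strand, in Spp1 at -112 to -106 on that strand, and in Lyz2 at -100 to -94 on the opposite strand. The AP-1 letters TGANTCA, which read the same on both strands, were in 2 of the 9, Itgax and Trem2, and in 6.75% of all windows. The interferon response element was in 1 of the 9, Spp1, at -157 to -148 on the opposite strand, and in 2.98% of all windows. Ccr2 had none of these letters in its window, and no match overlapped another. A match is a description of the letters and shows no binding.

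The libraries held 75176645 to 91898953 counts under PE-MP chow and 68357478 to 112566641 under normal chow. Levels are given as CPM, counts relative to the library total, scaled by trimmed-mean (TMM) factors, which were 1.07 to 1.17 under PE-MP chow and 0.879 to 0.923 under normal chow. Without these factors the median log2 fold change of all genes moved to 0.32. Mitochondrially encoded mRNAs took 8.63% to 9.19% of the counts under PE-MP chow and 14.2% to 15.1% under normal chow. Normal chow library 2 held 11.2% of its counts in the ribosomal RNA gene Rn18s-rs5, against 0.334% to 5.98% in the PE-MP libraries and 1.15% and 2.92% in the other normal chow libraries. Among the 3 normal chow libraries, library 2 was the highest for 9 of the 10 genes (all except Trem2) and the lowest for 0, whereas it was the highest for 37.8% and the lowest for 38.9% of all genes tested. Results are therefore also given without it. For those 9 genes, leaving out the highest normal chow library lowers the normal chow mean and so moves the fold change upward by construction. The library was picked partly on the values of these genes, so results without it are no independent support.

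Per kilobase of the longest principal transcript in GENCODE M21, the 10 genes spanned a wide range of levels. Lyz2 was the highest at 30.2 ± 9.06 CPM per kb under PE-MP chow and 23.8 ± 8.65 under normal chow (SD, n = 3 per chow). Spp1 (5.16 to 12.4 CPM per kb over the 6 libraries) and Cd9 (7.11 to 10.5) followed and overlapped each other. Both lay below every Lyz2 library, whose lowest was 15.6 CPM per kb. Lpl (1.95 to 4.48 CPM per kb) lay below every Cd9 library and barely overlapped Ly6c2 (0.624 to 1.98). The next levels were Trem2 at 0.272 to 0.718, Ccr2 at 0.0847 to 0.323, Itgax at 0.115 to 0.271, Cx3cr1 at 0.0894 to 0.207 and Gpnmb at 0.0667 to 0.135 CPM per kb, and each of these overlapped its neighbour in that order. For comparison, the Kupffer cell lectin Clec4f stood at 19.7 ± 4.33 CPM per kb under PE-MP chow and 12.8 ± 2.23 under normal chow (SD, n = 3 per chow), and every library was above every Trem2, Ccr2 and Cx3cr1 library.

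**Figure D1:**
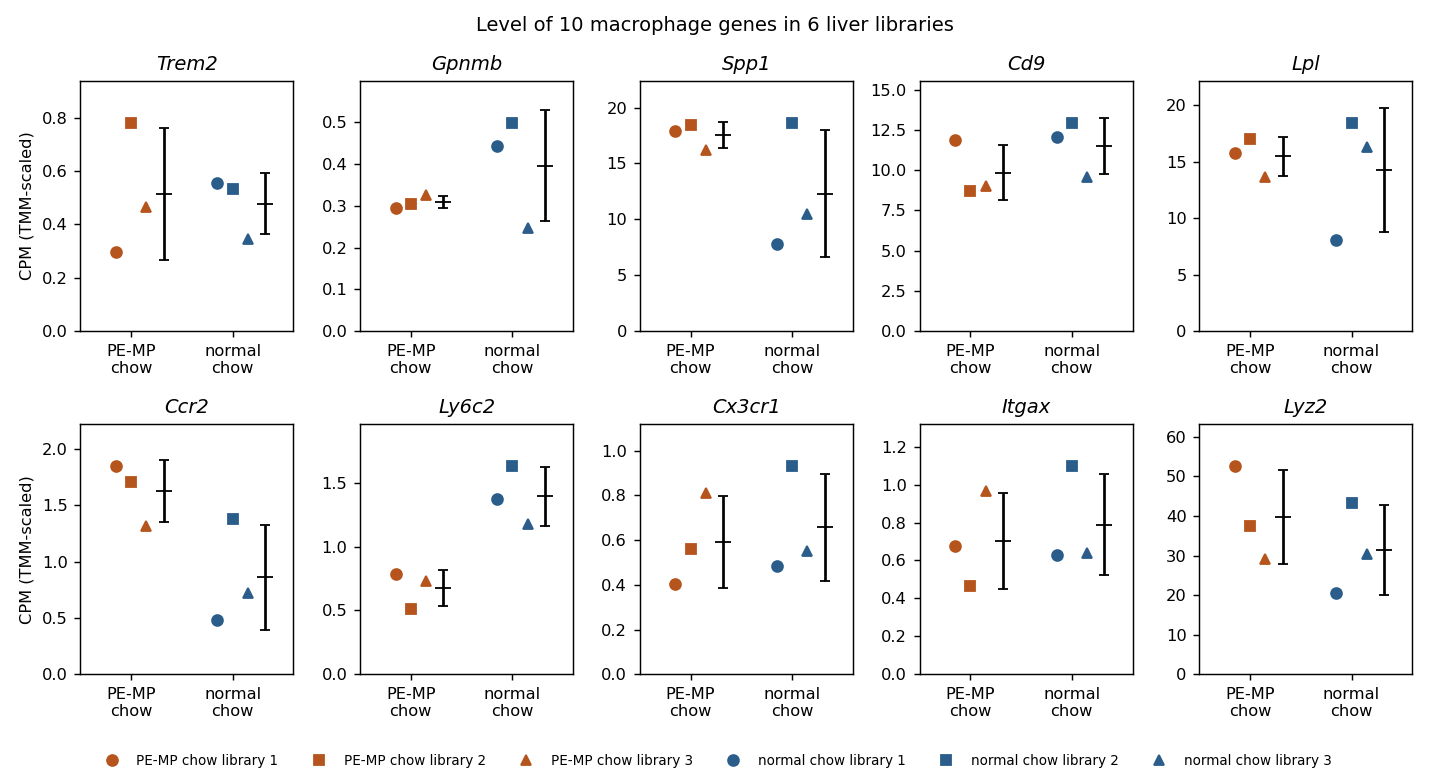
TMM-scaled CPM (y axes, linear from 0) of each of the 10 genes in the 3 PE-MP libraries and the 3 normal chow libraries, with the mean and SD (n = 3) beside the points. Only for Ly6c2 do the libraries of the chows not overlap, and normal chow library 2 (square) is the highest normal chow library in every panel except Trem2.

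Among the lipid-associated genes, Trem2, the receptor that binds lipids and apolipoproteins and signals through DAP12, was low and uneven. Its counts were 28, 64 and 50 in PE-MP libraries 1, 2 and 3 and 39, 32 and 35 in normal chow libraries 1, 2 and 3. That is 0.296, 0.781 and 0.465 CPM under PE-MP chow and 0.557, 0.532 and 0.346 CPM under normal chow. PE-MP libraries 1 and 2 were the lowest and the highest of all 6, so the chows overlapped completely, and the spread under PE-MP chow, a coefficient of variation of 47.9%, was above the 14.5% that counting alone would give. The log2 fold change was 0.11 ± 0.43 (SE), with a 95% interval of -0.92 to 1.14 (edgeR adjusted p = 0.918), an interval that holds a doubling in one direction and nearly a halving in the other. It turned to -0.32 without PE-MP library 2 and to -0.09 without normal chow library 3. Among the partners of Trem2, Tyrobp, which codes for the adaptor DAP12, had 7.18, 6.53 and 5.53 CPM under PE-MP chow and 4.28, 4.79 and 6.39 CPM under normal chow (log2 fold change 0.31 ± 0.21; edgeR adjusted p = 0.461), and its libraries overlapped. Apoe, a ligand of the receptor made mostly by hepatocytes, had 20750, 19700 and 17570 CPM under PE-MP chow and 27990, 21750 and 28270 CPM under normal chow (log2 fold change -0.43 ± 0.16; edgeR adjusted p = 0.236), with no overlap. Of 8 partners of Trem2, 4 had log2 fold changes above 0 and 4 below, and 0 passed the test with edgeR or DESeq2. The kinase gene Syk and the protease gene Adam17, whose product sheds the receptor, were at log2 fold changes of 0.14 and 0.20. Plcg2 and Hcst were at -0.27 and -0.56.

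Gpnmb, a transmembrane glycoprotein of lipid-laden and lysosome-rich macrophages, was the least abundant of the 10 per length. It had 28, 25 and 35 counts in PE-MP libraries 1, 2 and 3, and 31, 30 and 25 counts in normal chow libraries 1, 2 and 3. The levels were 0.296, 0.305 and 0.325 CPM under PE-MP chow and 0.443, 0.499 and 0.247 CPM under normal chow. The PE-MP libraries sat inside the range of the normal chow libraries, and their coefficient of variation of 4.86% was below the 18.5% of counting error, so their closeness says little about the true spread. The log2 fold change was -0.35 ± 0.38 (95% interval -1.24 to 0.55; edgeR adjusted p = 0.658).

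Spp1 codes for osteopontin, a secreted phosphoprotein that binds integrins and CD44. It had 17.9, 18.5 and 16.2 CPM in PE-MP libraries 1, 2 and 3 and 7.78, 18.6 and 10.4 CPM in normal chow libraries 1, 2 and 3. The PE-MP libraries were close together and above normal chow libraries 1 and 3, while normal chow library 2 was the highest of all 6. With total counts alone, normal chow library 2 was at 16.4 CPM, below the lowest PE-MP library at 19.0 CPM. The log2 fold change was then 0.82 (edgeR adjusted p = 0.139). Means were 17.5 ± 1.16 CPM under PE-MP chow and 12.3 ± 5.66 CPM under normal chow (SD, n = 3 each), with a log2 fold change of 0.51 ± 0.31 (95% interval -0.23 to 1.26; edgeR adjusted p = 0.429). Without normal chow library 2 the log2 fold change was 0.94 ± 0.17 and passed the threshold (edgeR adjusted p = 0.0434), in a fit where 2.38% of all genes were called higher under PE-MP chow. It was 0.27 without normal chow library 1, so the size of the difference rests on which normal chow libraries are kept.

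Bile duct cells are another source of Spp1. Of 6 cholangiocyte markers that passed the filter, 3 had log2 fold changes above 0 and 3 below, 0 passed with edgeR or DESeq2, and the summed level of the 9 markers listed was 55.7 to 88.0 CPM under PE-MP chow and 60.3 to 75.8 CPM under normal chow, most of it Aqp1, which endothelium also makes. Krt19, the duct keratin, had 0.709, 0.439 and 0.335 CPM under PE-MP chow and 0.271, 0.965 and 0.405 CPM under normal chow. Like Spp1, it was the highest in normal chow library 2. The part of these cells in the level of Spp1 was not tested. Of 7 receptor genes for osteopontin, 0 passed with edgeR and 1, Cd44, passed on the higher side with DESeq2. Cd44, its non-integrin receptor, had 6.29, 5.54 and 4.97 CPM under PE-MP chow and 3.43, 3.78 and 3.88 CPM under normal chow (log2 fold change 0.60 ± 0.17; edgeR adjusted p = 0.173), with every PE-MP library above every normal chow library. The integrin genes Itgav, Itgb1, Itgb3 and Itgb5 had log2 fold changes of -0.06, -0.14, -0.01 and -0.27, and Itga4 of 0.44, all with overlapping libraries. Itga9, at 0.19, had 13.07, 11.9 and 12.9 CPM under PE-MP chow and 11.15, 11 and 11.11 CPM under normal chow, without overlap.

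Cd9, a tetraspanin that organises integrins at the cell surface, had the narrowest interval of the 10. Its levels were 11.8, 8.73 and 8.99 CPM in PE-MP libraries 1, 2 and 3 and 12.04, 12.95 and 9.60 CPM in normal chow libraries 1, 2 and 3. The chows overlapped through PE-MP library 1. The log2 fold change was -0.23 ± 0.19, and its 95% interval of -0.67 to 0.22 left no room for a 2-fold difference in either direction (edgeR adjusted p = 0.558). Among its tetraspanin relatives, Cd81 had 148, 162 and 175 CPM under PE-MP chow and 266, 186 and 286 CPM under normal chow (log2 fold change -0.60 ± 0.18; edgeR adjusted p = 0.184). Cd82 (-0.40), Cd151 (-0.43) and the lysosomal Cd63 (-0.54) also had lower values in all 3 PE-MP libraries. Cd53, the tetraspanin of leukocytes, had 4.69, 3.83 and 3.98 CPM under PE-MP chow and 2.66, 5.96 and 3.61 CPM under normal chow, with full overlap. None of the 9 partner genes of Cd9 and Itgax passed with edgeR or DESeq2, and without normal chow library 2 edgeR called 3 of the 9 lower, Cd81, Cd82 and Cd151. Platelet markers, beside which Cd9 has to be read, summed to 4.41 to 5.13 CPM under PE-MP chow and 4.89 to 6.29 CPM under normal chow, with 1 of 4 tested genes above 0. Endothelial markers summed to 183 to 228 CPM under PE-MP chow and 137 to 166 CPM under normal chow, with 9 of 10 above 0, and stellate cell and fibroblast markers to 190 to 363 CPM under PE-MP chow and 346 to 367 CPM under normal chow, with 1 of 10 above 0. In these 3 lists 0 genes passed with edgeR, while DESeq2 called the platelet gene Pf4 lower and the endothelial gene Stab1 higher, and the part of these cells in the level of Cd9 was not tested.

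Lpl codes for lipoprotein lipase, which splits the triglycerides of circulating lipoproteins and is scarce in adult hepatocytes. It had 15.7, 17.04 and 13.7 CPM in PE-MP libraries 1, 2 and 3 and 8.04, 18.4 and 16.3 CPM in normal chow libraries 1, 2 and 3. A single low library, normal chow 1, set the difference in means. The log2 fold change was 0.12 ± 0.30 (95% interval -0.60 to 0.84; edgeR adjusted p = 0.865), and it turned to -0.17 without normal chow library 1. The summed level of 8 adipocyte markers was 10.98, 27.4 and 35.7 CPM in PE-MP libraries 1, 2 and 3 and 158, 34.1 and 129 CPM in normal chow libraries 1, 2 and 3, the highest where Lpl was the lowest. Most of this sum was Cidec and Cidea, lipid droplet genes, which had 60.2 and 84.4 CPM in normal chow library 1, while Fabp4 had 3.31 to 4.30 CPM under PE-MP chow and 3.85 to 4.97 CPM under normal chow. Of these markers 5 passed the filter, all with log2 fold changes below 0. With no expression filter, 5 of 7 were below 0 and 2 above. With edgeR 0 of the 5 passed, DESeq2 called Retn, Cfd and Cidec lower, edgeR without normal chow library 2 called Retn and Cidec lower, and the leptin gene Lep was at 0 counts in every library. The part of fat cells in the level of Lpl was not tested.

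The proteins that place and control the lipase were also measured, and 0 of 10 of their genes passed with edgeR. DESeq2 called Apoc1 and Apoc3 lower, and edgeR without normal chow library 2 called Lmf1 and Apoc3 lower. Gpihbp1, which anchors the lipase on capillary endothelium, had 10.2, 10.6 and 9.69 CPM under PE-MP chow and 9.07, 7.17 and 9.42 CPM under normal chow (log2 fold change 0.25 ± 0.16). Its PE-MP libraries were all above its normal chow libraries, by a small margin. The apolipoprotein genes Apoc1 (log2 fold change -0.64 ± 0.17) and Apoc3 (-0.63 ± 0.19), whose products restrain lipolysis, and the maturation factor Lmf1 (-0.52 ± 0.17) were lower in all 3 PE-MP libraries, with edgeR adjusted p of 0.159, 0.186 and 0.208. The other apolipoprotein genes of the list, Apoc2 (-0.63 ± 0.27) and Apoa5 (-0.30 ± 0.32), were also below 0. Their libraries overlapped, with edgeR adjusted p of 0.289 and 0.651. Of the 10 genes 4 were above 0 and 6 below. The inhibitors Angptl4 and Angptl8 had log2 fold changes of -0.10 and 0.19, with overlapping libraries.

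Turning to the genes of recruited monocytes, Ccr2 had the largest positive value of the 10. Its counts were 175, 140 and 142 in PE-MP libraries 1, 2 and 3 and 34, 83 and 73 in normal chow libraries 1, 2 and 3. As levels these were 1.85, 1.71 and 1.32 CPM under PE-MP chow and 0.485, 1.38 and 0.721 CPM under normal chow. PE-MP library 3 lay just below normal chow library 2, and that pair is the only overlap. This overlap depends on the scaling. With total counts alone the lowest PE-MP library was at 1.54 CPM and the highest normal chow library at 1.21 CPM. The log2 fold change was then 1.23 (edgeR adjusted p = 0.111). Ccr2 averaged 1.63 ± 0.275 CPM under PE-MP chow and 0.862 ± 0.464 CPM under normal chow (SD, n = 3 each), with a log2 fold change of 0.92 ± 0.41 (95% interval -0.04 to 1.89; edgeR adjusted p = 0.297). Without normal chow library 2 it was 1.42 ± 0.30, 2.67-fold, and still did not pass (edgeR adjusted p = 0.0555), and it was 0.64 without normal chow library 1.

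The ligands of CCR2 were barely detected. Ccl2, the main one, had 0.539, 1.001 and 0.586 CPM under PE-MP chow and 0.728, 0.649 and 0.563 CPM under normal chow (log2 fold change 0.13 ± 0.33; edgeR adjusted p = 0.862). Ccl7, Ccl8 and Ccl12 did not pass the expression filter.

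Ly6c2, one of a pair of genes for the Ly6C surface antigen, had counts of 74, 42 and 79 in PE-MP libraries 1, 2 and 3 and 96, 98 and 119 in normal chow libraries 1, 2 and 3. The levels were 0.783, 0.512 and 0.735 CPM under PE-MP chow and 1.37, 1.63 and 1.18 CPM under normal chow. All 3 PE-MP libraries were below all 3 normal chow libraries. Means were 0.677 ± 0.144 CPM under PE-MP chow and 1.39 ± 0.229 CPM under normal chow (SD, n = 3 each), with a log2 fold change of -1.04 ± 0.27 with a 95% interval of -1.68 to -0.39. Its unadjusted edgeR p of 0.00702 ranked 816 of 18043 genes and gave an adjusted p of 0.155. DESeq2 called it lower (adjusted p = 0.0322, log2 fold change -1.05). The value was between -1.15 and -0.88 when single libraries were left out, and -0.73 with total counts alone (edgeR adjusted p = 0.154).

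The sister gene Ly6c1 is nearly identical, and reads could be divided between the 2 rows by the counting, so the split between them is uncertain. Ly6c1 had 27, 20 and 21 counts under PE-MP chow and 20, 26 and 31 counts under normal chow. The summed level of both genes was 1.07, 0.757 and 0.930 CPM under PE-MP chow and 1.66, 2.06 and 1.48 CPM under normal chow. The sum thus kept the separation of the chows, with an exact permutation p of 0.1 (two-sided, n = 3 per chow), the smallest that 3 against 3 libraries can give. Ly6c2 made up most of the sum in every library and was already separated, so this p is no independent support. Lymphoid cells carry Ly6C too, and their markers are given beside it. Ly6c1 also stands in the list of endothelial markers, where it was the only gene below 0. Of that list 9 of 10 were above 0, with sums of 183 to 228 CPM under PE-MP chow and 137 to 166 CPM under normal chow. All 7 B and plasma cell markers had log2 fold changes below 0, with summed levels of 7.20 to 11.4 CPM under PE-MP chow and 20.4 to 60.7 CPM under normal chow. Under normal chow most of this sum was Jchain, at 13.05 to 40.47 CPM. Without normal chow library 2, 5 of the 7 were below 0 and 2 above. For T and NK cells 7 of 9 tested markers were below 0, with sums of 5.06 to 9.28 CPM under PE-MP chow and 7.85 to 10.4 CPM under normal chow. The 2 above 0 were Il2rb (0.11) and the NK cell gene Klrb1c (0.89 ± 0.33; edgeR adjusted p = 0.236). Klrb1c was higher in every PE-MP library than in every normal chow library. In these 3 lists 0 genes passed with edgeR. DESeq2 called the B and plasma cell genes Cd79a, Jchain and Mzb1 lower and the endothelial gene Stab1 higher. The part of lymphoid and endothelial cells in the level of Ly6c2 was not tested.

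**Figure D2:**
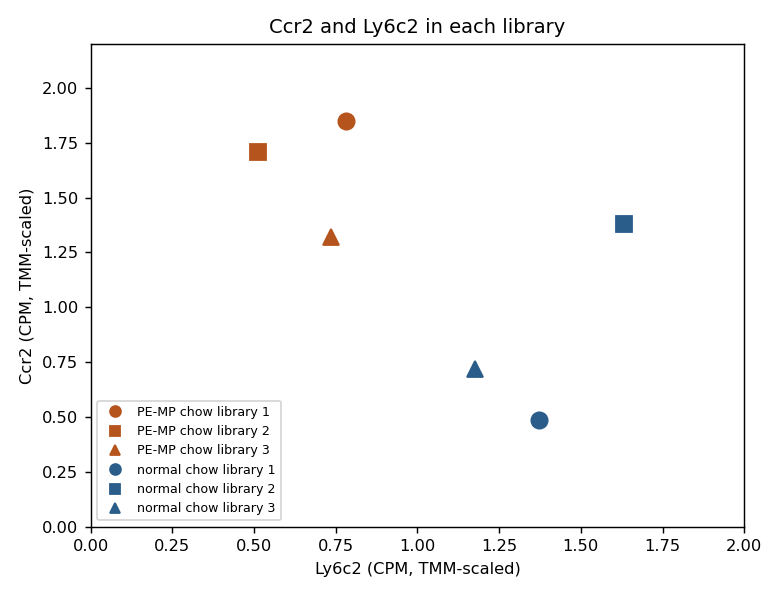
Ccr2 (y axis) against Ly6c2 (x axis) in each of the 6 libraries, both in TMM-scaled CPM on linear axes from 0. The 3 PE-MP libraries lie at the upper left, with Ly6c2 at 0.512 to 0.783 CPM and Ccr2 at 1.32 to 1.85 CPM, and the 3 normal chow libraries at the right, with Ly6c2 at 1.18 to 1.63 CPM.

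A ratio of 2 genes within a library needs no scaling between libraries. The counts of Ccr2 per count of Ly6c2 were 2.37, 3.33 and 1.80 in PE-MP libraries 1, 2 and 3 and 0.354, 0.847 and 0.613 in normal chow libraries 1, 2 and 3. The mean ratio was 2.499 ± 0.777 under PE-MP chow and 0.605 ± 0.247 under normal chow (SD, n = 3 per chow), a 4.13-fold difference, and the chows did not overlap. The exact permutation p was 0.1 (two-sided), the smallest the design allows, and 0.26 after adjustment over the 13 pairs of genes compared. Of these 13 pairs 5 had chows that did not overlap, each at this p: besides Ccr2 over Ly6c2 they were Ccr2 over Cx3cr1 (2.45-fold), Spp1 over Gpnmb (1.76-fold) and Lyz2 over Lyz1 (1.68-fold) on the higher side, and Ly6c2 over Ly6c1 (0.693-fold) on the lower side. The pairs were chosen after values were seen. Ccr2 and Ly6c2 had the highest and the lowest log2 fold change of the gene set, 0.92 and -1.04. Their ratio therefore joins the extremes of the set, and its separation, size and p are no independent support. The adjustment over the pairs does not correct for this choice. Set against Csf1r, the receptor for macrophage colony-stimulating factor that all monocytes and macrophages carry, Ccr2 gave 0.0486, 0.0476 and 0.0518 counts per count under PE-MP chow and 0.0192, 0.0935 and 0.0290 under normal chow. That ratio was nearly constant under PE-MP chow and overlapped the wide range under normal chow.

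Cx3cr1, the fractalkine receptor of patrolling monocytes, had 38, 46 and 87 counts in PE-MP libraries 1, 2 and 3 and 34, 56 and 56 counts in normal chow libraries 1, 2 and 3. Its levels were 0.402, 0.561 and 0.809 CPM under PE-MP chow and 0.485, 0.932 and 0.553 CPM under normal chow. The chows overlapped fully, and the log2 fold change of -0.14 ± 0.39 (95% interval -1.08 to 0.79; edgeR adjusted p = 0.876) had no stable sign, since it was 0.071 without PE-MP library 1 and 0.18 without normal chow library 2. Its ligand gene Cx3cl1 had 0.888, 0.647 and 0.800 CPM under PE-MP chow and 0.914, 0.532 and 0.770 CPM under normal chow, also without separation.

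Itgax codes for the integrin chain CD11c of dendritic cells and some recruited macrophages. It had 0.677, 0.464 and 0.967 CPM in PE-MP libraries 1, 2 and 3 and 0.628, 1.10 and 0.642 CPM in normal chow libraries 1, 2 and 3. The highest and the lowest library of the chows interleaved, with a log2 fold change of -0.16 ± 0.38 (95% interval -1.07 to 0.75; edgeR adjusted p = 0.854) that turned to 0.058 without PE-MP library 2 and 0.15 without normal chow library 2. Its partner chain Itgb2 had 7.43, 5.003 and 5.14 CPM under PE-MP chow and 5.58, 5.22 and 5.34 CPM under normal chow, a log2 fold change of 0.12 ± 0.20. Of 8 dendritic cell markers tested 0 passed with edgeR or DESeq2, and the sum of all 10 listed was 7.68 to 10.2 CPM under PE-MP chow and 5.93 to 10.7 CPM under normal chow. The cross-presenting dendritic cell gene Clec9a had 1.24, 1.23 and 1.36 CPM under PE-MP chow and 0.443, 0.915 and 0.148 CPM under normal chow (log2 fold change 1.37 ± 0.59; edgeR adjusted p = 0.286).

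Lyz2, the lysozyme of myeloid cells, was by far the best counted monocyte gene, with 3072 to 4974 counts per library under PE-MP chow and 1435 to 3076 under normal chow. Its levels were 52.6, 37.5 and 29.1 CPM in PE-MP libraries 1, 2 and 3 and 20.5, 43.2 and 30.4 CPM in normal chow libraries 1, 2 and 3. The libraries overlapped, and the spread of 30.0% under PE-MP chow and 36.3% under normal chow (coefficient of variation) was many times the counting error of 1.64% and 2.05%. The log2 fold change was 0.34 ± 0.32 (95% interval -0.43 to 1.12; edgeR adjusted p = 0.609). Neutrophils hold Lyz2 as well. All 6 neutrophil markers that passed the filter had higher means under PE-MP chow. With no expression filter, 7 of 9 had log2 fold changes above 0 and 2 below. Summed levels over the 11 listed markers were 4.39 to 5.19 CPM under PE-MP chow and 2.01 to 2.77 CPM under normal chow. Ly6g and Camp were at 0 counts in every library, and S100a9 had 1.195, 0.988 and 0.846 CPM under PE-MP chow and 0.371, 0.299 and 0.375 CPM under normal chow (log2 fold change 1.53 ± 0.27; edgeR adjusted p = 0.124). No neutrophil marker passed with edgeR on all libraries, DESeq2 called S100a9 and Csf3r higher, edgeR without normal chow library 2 called S100a9 higher, and the part of these cells in the level of Lyz2 was not tested.

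**Figure D3:**
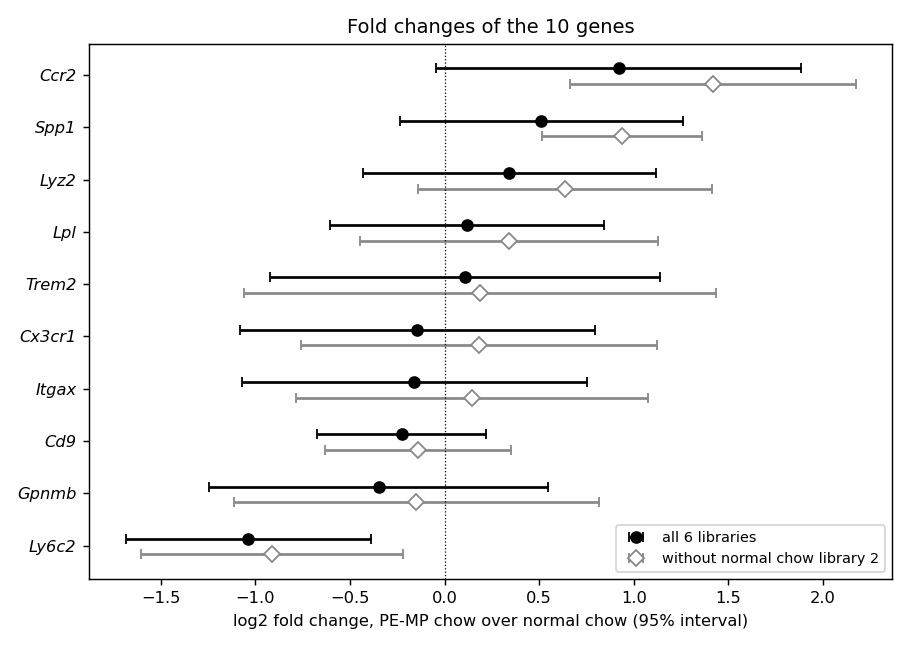
Log2 fold change of each gene, PE-MP chow over normal chow, with its 95% interval from edgeR, on all 6 libraries (filled circles) and without normal chow library 2 (open diamonds). On all libraries the interval of Ly6c2 (-1.68 to -0.39) is the one that does not reach 0; without that library those of Ccr2, Spp1 and Ly6c2 do not reach 0.

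The normal chow libraries differed from each other in most of these genes. Relative to each gene's own mean over the 6 libraries, normal chow library 1 stood at -1.21 for Ccr2, -0.86 for Spp1, -0.84 for Lpl and -0.73 for Lyz2 on the log2 scale. Normal chow library 2 was above the mean for all 10, at 0.17 to 0.77. Under PE-MP chow no library was the highest for more than 4 of the 10 genes. With normal chow library 2 left out, the median log2 fold change of the 10 genes was 0.19, with 7 above 0 and 3 below, and 1 of the 10, Spp1, passed the test. In that fit edgeR called 2.38% of all genes higher and 3.27% lower, and the median of all genes was 0.04. The rise of the 10 genes follows from leaving out a library in which most of them were the highest under normal chow.

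**Figure D4:**
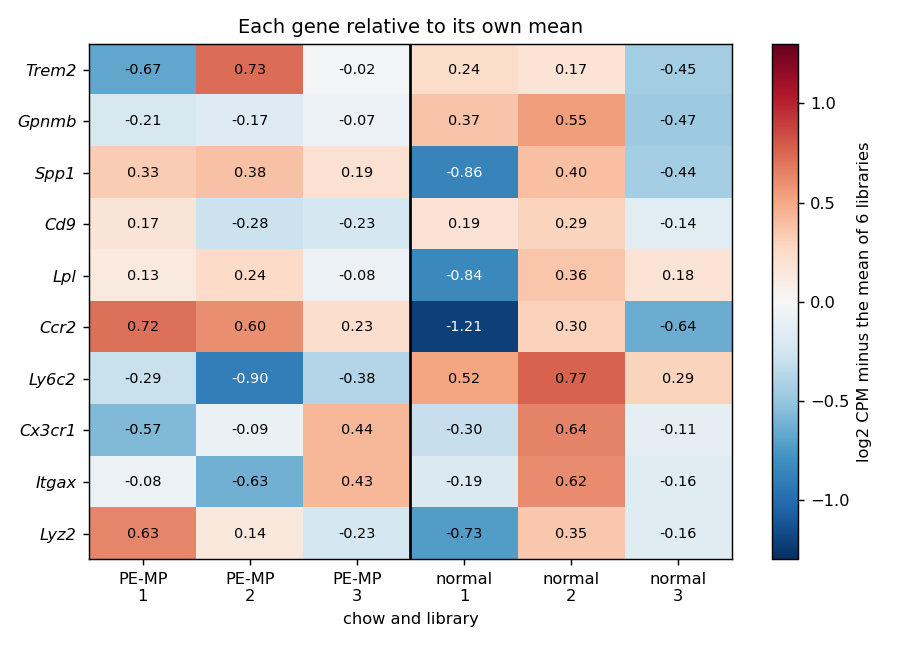
Log2 TMM-scaled CPM of each gene (rows) in each library (columns) minus the gene's mean over the 6 libraries, as colours and printed values. Normal chow library 2 is above the mean in all 10 rows, and Ly6c2 is the one row in which all 3 PE-MP libraries are below the mean and all 3 normal chow libraries above it.

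Values below 0 were frequent among other genes known from the lipid-associated program. Of 22 further genes of this program 0 passed with edgeR, while DESeq2 called 6 lower (Fabp5, Lgals1, Lipa, Anxa2, Anxa5 and Cstb) and 1 higher (Cd68). In the edgeR fit 19 had log2 fold changes below 0 with TMM factors and 13 with total counts alone, and their median of -0.38 (-0.09 with total counts) lay beside 0.02 for all genes tested (0.32 with total counts). The libraries of the chows did not overlap for 10 of the 22 on the lower side, against 11.8% of all genes, and for 1 on the higher side. Because the list was chosen with earlier results of these data known, that excess is a description and no independent support. Anxa2, a membrane-binding annexin, had 10.5, 8.29 and 8.71 CPM under PE-MP chow and 20.5, 14.0 and 18.2 CPM under normal chow (log2 fold change -0.94 ± 0.19; edgeR adjusted p = 0.128). Lipa, the lysosomal acid lipase, had 195, 196 and 192 CPM under PE-MP chow and 356, 257 and 305 CPM under normal chow (log2 fold change -0.65 ± 0.14; edgeR adjusted p = 0.135). Anxa5 had a log2 fold change of -0.82 ± 0.19 (edgeR adjusted p = 0.138). The gene on the higher side was Cd68, a lysosomal glycoprotein of macrophages, which also stands among the markers shared by macrophages, with 7.03, 6.75 and 5.90 CPM under PE-MP chow and 4.24, 3.93 and 4.36 CPM under normal chow. Several genes of this list, such as Apoe, Lipa and the cathepsin genes, are strongly expressed by hepatocytes as well. The summed level of 8 hepatocyte markers was 73650 to 81000 CPM under PE-MP chow and 64530 to 84880 CPM under normal chow. Of these 8 markers 6 were above 0 and 0 passed with edgeR or DESeq2. Stellate cell and fibroblast markers had a median log2 fold change of -0.41, near that of the list. Of these 10 markers 1 was above 0 and 0 passed with edgeR or DESeq2. The part of hepatocytes, stellate cells and fibroblasts in the values of the list was not tested. Without normal chow library 2, 8 of the 22 passed on the lower side, among them Lipa, Anxa2 and Anxa5, in a fit that called 3.27% of all genes lower.

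Further monocyte genes were mixed. Of 19 tested, 8 had log2 fold changes above 0 and 11 below with TMM factors (11 and 8 with total counts alone), 0 passed with edgeR or DESeq2, and their median was -0.21. Csf1r had 38.0, 35.9 and 25.5 CPM under PE-MP chow and 25.3, 14.8 and 24.9 CPM under normal chow (log2 fold change 0.61 ± 0.25; edgeR adjusted p = 0.274). Plac8, a gene of classical monocytes, had 4.18, 2.61 and 4.12 CPM under PE-MP chow and 5.48, 5.66 and 4.28 CPM under normal chow (-0.50 ± 0.24), while Itgal, the integrin chain of LFA-1, was at 9.46, 7.37 and 6.81 CPM under PE-MP chow and 5.88, 6.42 and 5.99 CPM under normal chow (0.37 ± 0.17). The libraries of the chows did not overlap for 3 of the 19 on the higher side, Csf1r, Itgal and Fn1 (0.20), against 14.2% of all genes. On the lower side there were 2 of the 19, Plac8 and S100a6 (-0.79), against 11.8% of all genes. Both counts are near the shares of all genes. Nr4a1, the nuclear receptor that patrolling monocytes depend on, had 5.31, 2.39 and 0.781 CPM under PE-MP chow and 0.728, 1.498 and 0.671 CPM under normal chow (1.56 ± 0.71; edgeR adjusted p = 0.309), and overlapped.

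Markers listed as shared by macrophages had higher mean values under PE-MP chow, without passing the edgeR test. All 15 markers shared by macrophages had log2 fold changes above 0, with a median of 0.45 beside 0.02 for all genes tested. With total counts alone their median was 0.74, beside 0.32 for all genes. All 15 were above 0 there too, which the upward move of all genes brings about and which is no further support. Without PE-MP library 1 there were 13 of 15 above 0, with a median of 0.29. With edgeR 0 of 15 passed, and DESeq2 called Cd68 higher. Their summed level was 181 to 268 CPM under PE-MP chow and 160 to 176 CPM under normal chow. Of 14 Kupffer cell markers 10 were above 0, with a median of 0.54, and 0 of 14 passed with edgeR. DESeq2 called Vsig4, Timd4 and Clec1b higher, and edgeR without normal chow library 2 called Clec1b higher. The libraries of the chows did not overlap for 5 of the 14, Clec4f, Vsig4, Timd4, Clec1b and Spic, all on the higher side, against 14.2% of all genes. This list too was chosen with earlier results of these data known, so the count is a description. The summed level of the 14 was 545 to 605 CPM under PE-MP chow and 548 to 606 CPM under normal chow, without separation, most of it C6, Slc40a1, Hpgd, Nr1h3 and Id3. Clec1b, a Kupffer cell lectin, had 5.65, 5.65 and 4.87 CPM under PE-MP chow and 2.30, 2.79 and 2.94 CPM under normal chow (log2 fold change 1.01 ± 0.18; edgeR adjusted p = 0.124). Clec4f had 54.9, 55.0 and 36.4 CPM under PE-MP chow and 35.5, 25.3 and 34.0 CPM under normal chow. The counts of Trem2 per count of Clec4f were 0.00540, 0.0142 and 0.0128 under PE-MP chow and 0.0157, 0.0210 and 0.0102 under normal chow, and overlapped.

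**Figure D5:**
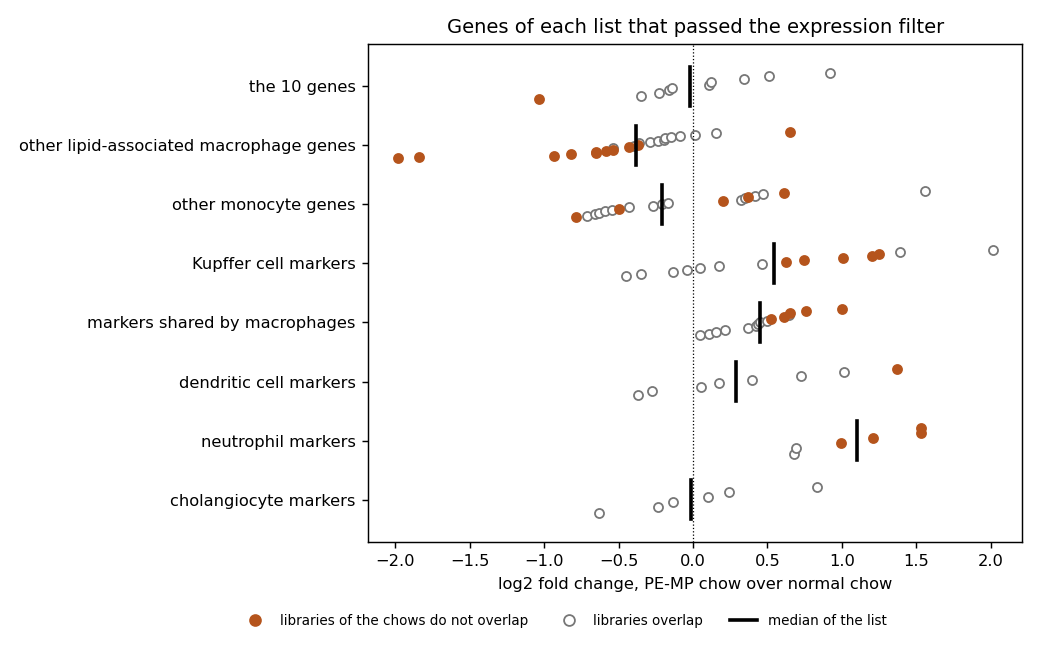
Log2 fold changes (x axis, PE-MP chow over normal chow, TMM factors) of the genes that passed the expression filter in each list (rows), filled where the libraries of the chows do not overlap, with a bar at the list median. The medians are -0.02 for the 10 genes, -0.38 for other lipid-associated macrophage genes, -0.21 for other monocyte genes, 0.54 for Kupffer cell markers and 0.45 for markers shared by macrophages.

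The profiles closest to single genes were taken from the 11535 or 11536 other genes with a mean of at least 1 CPM, by the root mean square difference of log2 CPM over the 6 libraries after centring each gene on its own mean. For Spp1 they were Sgk3 (0.0588 log2 units) and Fnbp1l (0.0595). The nearest to Ccr2 were Ccl25 (0.0853) and Ccdc66 (0.142), which were likewise the lowest in normal chow library 1. For Ly6c2 they were Apol9a (0.101) and Irf7 (0.136). Apol9a had 71.2, 53.2 and 69.0 CPM under PE-MP chow and 134, 136 and 120 CPM under normal chow, and Irf7, an interferon regulatory factor, had 32.6, 26.3 and 37.2 CPM under PE-MP chow and 57.1, 68.4 and 46.4 CPM under normal chow. Lyz2 was nearest to Ly86 (0.109) and Hsp90aa1 (0.111), and Lpl to Flvcr1 (0.0687) and Zbtb8a (0.0870). For the other 5 genes the 2 nearest lay at 0.0408 (Pim2, nearest to Cd9) to 0.158 (Postn, near Itgax). Profiles over 6 libraries are a description and carry no test.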

How the data were processed

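Liver RNA was sequenced in 6 libraries, 3 per chow, after poly(A) selection with a directional kit, per the labels' protocols. The deposited values are raw read counts per gene, per the file headers and the totals, and were not normalised by the authors. Bcl2fastq was used and the build was GRCm39, per the submitters' processing notes; for aligner, counting program, annotation release and strand setting the sources used here give no name. The table of the series matched all 6 library files on its 56674 rows.

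Groups came from the sample titles; 1 treatment text, naming PE-MP chow, stands on all 6 samples. Counts were filtered with filterByExpr (minimum count 10, total 15), scaled by TMM and tested with edgeR 4.0.16 (quasi-likelihood, robust, R 4.3.3), two-sided, with Benjamini-Hochberg adjustment over 18043 genes and a threshold of 0.05. SEs and 95% intervals were derived from each coefficient and F statistic. The steps were tested on simulated counts. The alternatives were RLE, upper-quartile or no factors, DESeq2 1.42.0, limma-voom (limma 3.58.1), no filter, a filter of 1 CPM, a replicate block, a threshold of 0.1, leaving out genes over 1% of a library, and each library left out; the alternative with no factors was added after seeing the data. Transcript lengths are from GENCODE M21 (GRCm38), upstream sequences from RefSeq (GRCm38.p6). The 10 genes and all lists were chosen with earlier results of these data known. Named were the 10 genes, up to 3 genes per list by smallest p, the 2 nearest profiles of each gene, and partners or markers chosen after their values were seen.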

Additional observations from a re-analysis of the deposited data

How the results depend on the processing

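Of 146 log2 fold changes of the 10 genes under the alternatives, 134 kept direction and side of the threshold, 2 passed it (Ly6c2 with DESeq2, at -1.05; Spp1 without normal chow library 2, at 0.94) and 10 turned sign. Those were Cd9 (0.073), Cx3cr1 (0.18) and Itgax (0.16) without scaling factors, and 7 values with single libraries left out, where Trem2 ranged over -0.32 to 0.39, Lpl over -0.17 to 0.34, Cx3cr1 over -0.46 to 0.18 and Itgax over -0.48 to 0.15. The cause was not tested. Of the 10 genes, 1 passed lower with DESeq2, and between 0 and 1 passed higher when single libraries were left out. Without scaling factors, 2 genes did not overlap between chows on the higher side, Ccr2 and Spp1. With single libraries left out, 0 to 2 did so on the higher side and 1 to 3 on the lower side, where fewer libraries have to be parted. Over all genes, edgeR called 1 higher and 0 lower. The counts higher and lower were 2 and 1 with RLE factors, 559 and 627 with DESeq2, 7 and 12 with limma-voom, 15 and 8 with no filter, 11 and 11 with the stricter filter, 10 and 0 without scaling factors, and 24 and 29 at a threshold of 0.1. With single libraries left out they were 1 to 452 higher and 0 to 623 lower, the largest without normal chow library 2. With the replicate block there were 0 and 0, and 0 of the 10 genes passed. In their deviations from the group means, same-numbered libraries correlated at 0.003, 0.04 and 0.14. Pairs with different numbers correlated at -0.15 to 0.12, the highest being normal chow library 2 with PE-MP library 1. Correlations this small, from 3 libraries per chow, cannot show whether the number marks a pairing. Counts of 25 to 175 for Trem2, Gpnmb, Ccr2, Ly6c2, Cx3cr1 and Itgax limit precision, with a counting error of 8.10% to 18.7% at the mean count of a chow's libraries.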
